A study of Mus musculus with 12 samples.

Results

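The genes described here encode 10 secreted growth factors, growth factor antagonists and neuropeptide precursors: Bdnf, Vgf, Hbegf, Tgfb1, Tgfb2, Fst, Inhba, Gdf15, Vegfa and Fgf2. They were taken by name, and every probe that the platform annotation gives to them was read on all 12 arrays. Of the 10 genes, 9 had a probe, with 13 probes in all among the 25697 of the array, and no probe was listed under Gdf15. A probe was called detected on an array where its detection p-value was under 0.01. By that measure 6 of the 10 genes (Vgf, Bdnf, Hbegf, Fst, Tgfb2 and Vegfa) were detected on at least 1 array and 4 (Bdnf, Hbegf, Tgfb2 and Vegfa) on all 12, out of 16593 named genes.

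The cells were mouse astrocytes that had been differentiated from neural stem cells of a single line, labelled Rosa25/OG2, and total RNA was hybridised to 1-colour Illumina bead arrays. In 10 groups the astrocytes were activated with 1 µg/ml of lipopolysaccharide (LPS) and 10 ng/ml of interferon-gamma and received 1 of 10 hit compounds for 4 h, each known by a code from E4 to E33. The activated control received both stimuli and no compound, and the non-activated control received neither. Doses, structures and the number of cultures behind an array are not in the labels, and each group is 1 array, so no difference below has a replicate check, an error or a p-value.

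Growth factors of this kind leave the cell and act on receptors of the same cell or its neighbours. Astrocytes are known as a source of several of them in the brain. Neurotrophins such as brain-derived neurotrophic factor signal through Trk receptors to keep neurons alive and shape synapses, and ligands of the epidermal growth factor (EGF) family act on ErbB receptors. Members of the transforming growth factor-beta (TGF-beta) superfamily, among them the activins, act through SMAD proteins, and follistatin binds activins outside the cell. Vascular endothelial growth factor drives the growth and leakiness of vessels.

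Values are log2 intensities after background correction and quantile normalisation, and a fold is between 2 arrays. Differences of 2-fold or more were called higher or lower. An undetected gene was given the array's floor, which is the dimmest value detected there, and its fold is then written as a lower bound. The pair of arrays most alike, E5 and the activated control, differed with a standard deviation over genes of 0.20 log2 units, which serves below as a yardstick and is not a replicate error. The arrays were alike in the number of detected probes except 1: 9106 were detected with E29, against 10093 to 10719 on the other 11. The E29 floor was 5.99 log2 units, against 5.37 to 5.59. Its median deposited intensity of 120 lay within the range of the others, from 117 (E4) to 127 (E14). RNA quality was not measured, and fewer expressing cells and less RNA per cell cannot be told apart in bulk samples.

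The label of the cells was checked with marker genes. Of 10 astrocyte markers 9 were detected on all 12 arrays, and the intermediate filament gene Gfap lay between 12.37 (activated control) and 12.87 (E33) log2 units. None of the 6 microglial and 4 endothelial markers with a probe was detected on any array. Of 8 neuronal markers 4 were detected: Map2, Syt1 and Syn1 on all 12 arrays and Dcx on 2. Map2 lay between 11.12 (E18) and 11.71 (E29). Of 7 oligodendrocyte lineage markers with a probe 1, Olig1, was detected, on all 12 arrays. Of 6 neural stem cell markers 4 (Nes, Sox2, Fabp7 and Vim) were detected on all 12 arrays. Nes lay between 10.77 (E14) and 11.44 (E20), and Vim between 13.90 (E23) and 14.13 (non-activated control). Of the 3 neuronal markers measured in the E29 comparison 1, Syt1, was 2-fold higher with E29, and none was 2-fold changed with E33 or with activation. Of the 9 measured astrocyte markers Sox9 was 2.60-fold lower with activation, Aldh1l1 and Ndrg2 were 2.16-fold and 2.03-fold higher with E29, and none was 2-fold changed with E33. Of 4 measured neural stem cell markers 1, Sox2, was lower, by 2.17-fold with activation, 2.12-fold with E4 and 3.17-fold with E29. The other 3 stayed under 2-fold in these comparisons, and with E29 they changed by 0.93 (Fabp7), 0.06 (Vim) and -0.13 (Nes). The part of these shifts in the results below was not tested.

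Promoter sequence was at hand for 7 of the 10 genes (RefSeq, GRCm38.p6, 15 transcription starts), and for Vgf, Hbegf and Fst none is printed. The 250 bases before each start were searched on both strands for the core of the cAMP response element (TGACGT or its reverse complement), the E-box CACGTG and the AP-1 site TGANTCA. A stretch can hold more than 1 of these, and ACGT is common to the first pair. The next sequences are shown because Bdnf had the largest decrease with E29 among the genes still detected there and Tgfb2 was the 1 gene that was higher. For Bdnf, the start shown is the 1 of its 7 that holds a cAMP response element core, in capitals, with its first base 36 bases before the start. For Tgfb2, the capitals mark an E-box whose first base lies 51 bases before its only start.
Bdnf, chr2:109692186-109692435, plus strand: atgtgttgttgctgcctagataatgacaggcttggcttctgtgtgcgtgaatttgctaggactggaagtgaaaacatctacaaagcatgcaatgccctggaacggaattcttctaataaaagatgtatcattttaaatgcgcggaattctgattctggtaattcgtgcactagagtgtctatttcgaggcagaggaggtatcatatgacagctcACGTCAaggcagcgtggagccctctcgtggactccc
Tgfb2, chr1:186705990-186706239, minus strand: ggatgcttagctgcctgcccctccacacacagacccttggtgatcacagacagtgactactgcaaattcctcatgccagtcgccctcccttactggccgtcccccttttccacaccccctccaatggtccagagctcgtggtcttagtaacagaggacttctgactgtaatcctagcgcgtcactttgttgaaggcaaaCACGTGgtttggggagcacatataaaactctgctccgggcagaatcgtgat

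These letters are common: 6.47% of the 32851 promoters of the same length held the cAMP response element core, 6.02% the E-box and 6.75% the AP-1 site. These shares are per start, and a gene with several starts, such as Bdnf with 7, has more places for a match. Another Bdnf start held an AP-1 site, 152 bases before it, and 1 of the 2 Vegfa starts held a cAMP response element core. Of the 2 Gdf15 starts 1 held an E-box, and no match was found before the single starts of Tgfb1, Fgf2 and Inhba. The array does not tell which Bdnf start was in use.

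**Figure D1:**
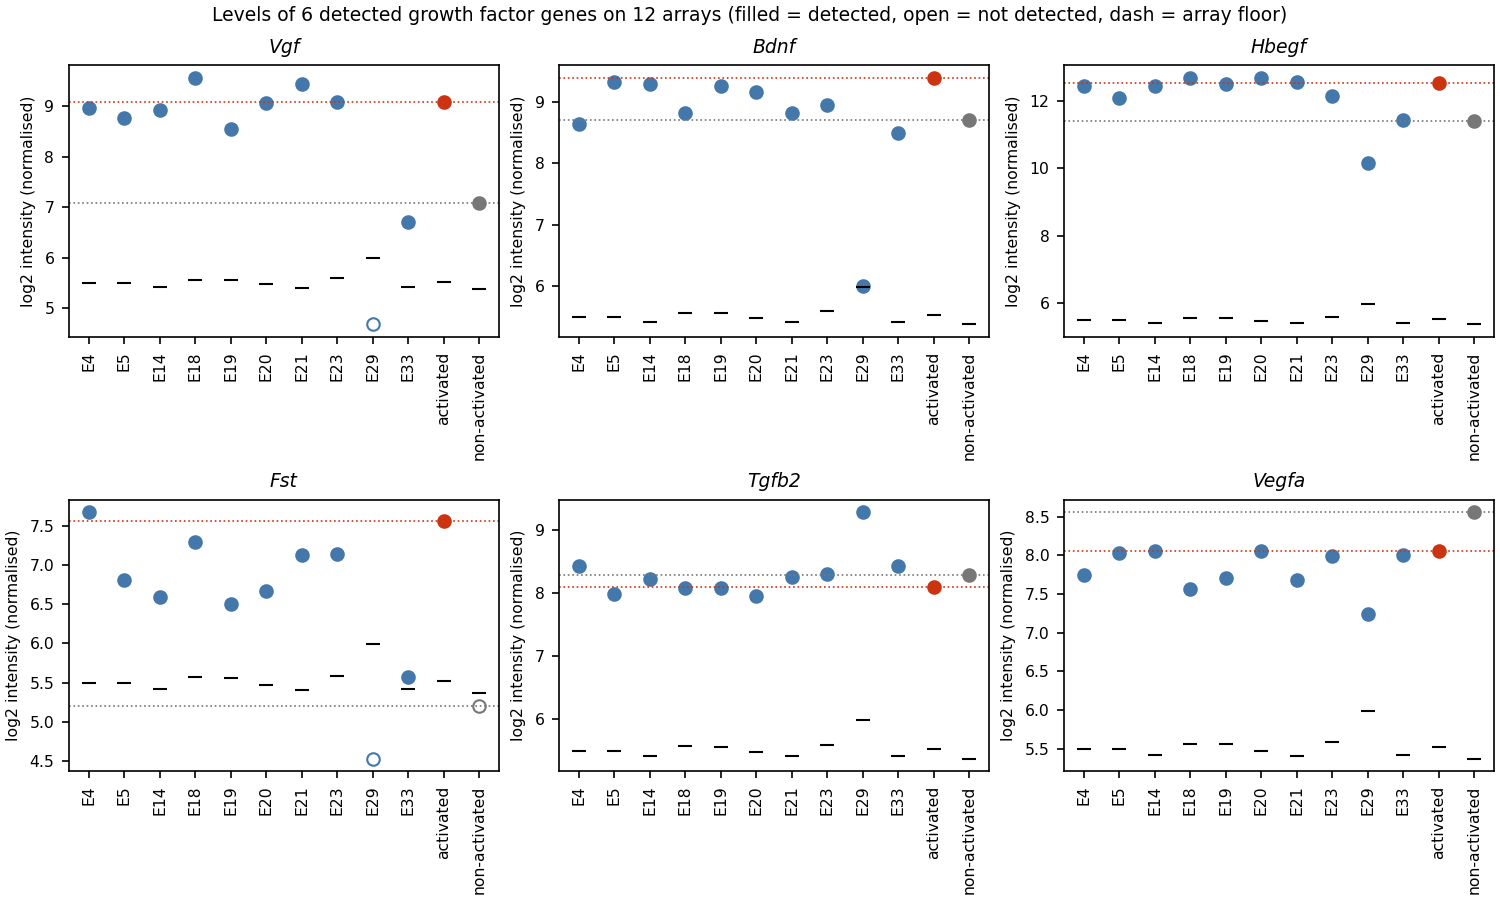
Normalised log2 intensity of 6 detected growth factor genes on the 12 arrays, with 1 point per array. Blue points are compounds on activated cells, the red point is the activated control and the grey point the non-activated control; open points were not detected, short dashes give each array's floor and dotted lines carry the levels of both controls. The E29 and E33 points of Vgf, Hbegf and Fst stand below those of the other 8 compounds, and the E29 point of Tgfb2 stands above all others.

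The neuropeptide precursor Vgf had 1 probe. Its product belongs to the granins, is cut into several secreted peptides, and is known to be induced by neurotrophins. Vgf stood at 8.96 with E4, 8.77 with E5, 8.93 with E14, 9.57 with E18, 8.54 with E19, 9.06 with E20, 9.43 with E21, 9.08 with E23, 4.68 with E29 and 6.70 with E33, against 9.08 in the activated control and 7.08 in the non-activated control. On the E29 array it was not detected. So 9 of the 11 activated arrays lay above the non-activated array, by at least 1.46 log2 units, and E29 and E33 lay below it. Among the 11 arrays that detected Vgf, the widest gap in the order of levels, 1.46, lay between E19 and the non-activated control. The compounds E18, E21 and E23 and the activated control filled the top of that order, with E23 and the activated control at the same level to 2 decimals.

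With activation, Vgf was 4.00-fold higher, set against the non-activated control. With E33 it was 5.22-fold below the activated control (log2 change -2.38), the second largest decrease of 7502 measured genes on that array. It ranked first or second under all 9 alternative ways of processing. In the deposited intensities, before any correction, the probe read 203 with E33, against 680 in the activated control, and 255 in the non-activated control. With E29 the decrease was at least 8.53-fold. Over the alternatives the log2 change of Vgf was -4.40 to -2.00 with E29 and -2.39 to -1.68 with E33, all past 2-fold, and the smallest decreases were those without background correction. The changes with the other 8 compounds were under 2-fold and lay between -0.54 (E19) and 0.49 (E18).

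Bdnf, the neurotrophin that acts on the receptor TrkB, had 3 probes, of which 1 was detected, on all 12 arrays. That probe was annotated to another transcript record than the other pair, which stayed between 4.44 and 5.16 log2 units and were detected on no array. The detected probe stood at 8.65 with E4, 9.32 with E5, 9.30 with E14, 8.82 with E18, 9.26 with E19, 9.16 with E20, 8.81 with E21, 8.95 with E23, 5.99 with E29 and 8.49 with E33, against 9.40 in the activated control and 8.71 in the non-activated control. The activated control was the highest array. Of the 11 activated arrays 8 lay above the non-activated array, and E4, E33 and E29 lay below it. Apart from E29 the arrays covered less than 1 log2 unit, and 2 of the 11 gaps in the order passed 0.20.

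The Bdnf level with E29 was 10.6-fold under the activated control and 6.58-fold under the non-activated control. Its detection p-value was 0.009 there and its level lay at the floor, so a larger decrease could not have been measured. The change with E29 stayed past 2-fold under all 9 alternatives, between -4.10 and -2.27. Activation itself was 0.69, under 2-fold, and 0.24 when the median of all 11 activated arrays stood in for the activated control. With E33 and E4 the changes were -0.90 and -0.75, and with reference gene scaling that of E4 was -1.13.

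Hbegf encodes heparin-binding EGF-like growth factor, a membrane-anchored ligand of the EGF receptor that is released by metalloproteases. Its single probe was detected on all 12 arrays. It stood at 12.46 with E4, 12.09 with E5, 12.45 with E14, 12.69 with E18, 12.50 with E19, 12.67 with E20, 12.58 with E21, 12.15 with E23, 10.17 with E29 and 11.44 with E33, against 12.52 in the activated control and 11.40 in the non-activated control. The activated control and 8 compound arrays lay close together, with E5 lowest and E18 highest of them. The E33 array stood within 0.04 of the non-activated array, and E29 lay 1.23 below it.

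With activation, Hbegf was 2.18-fold above the non-activated control (log2 change 1.12, and 1.05 to 1.16 over the alternatives). Relative to the activated control it was 5.12-fold lower with E29 and 2.13-fold lower with E33. The second of these is close to the 2-fold limit, and it stayed past it under all 9 alternatives (-1.21 to -1.04). With the other 8 compounds Hbegf changed by -0.44 (E5) to 0.17 (E18).

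Of the TGF-beta superfamily group, the activin antagonist follistatin had the widest range over the arrays. The Fst probe stood at 7.68 with E4, 6.80 with E5, 6.59 with E14, 7.29 with E18, 6.50 with E19, 6.67 with E20, 7.12 with E21, 7.14 with E23, 4.53 with E29 and 5.58 with E33, against 7.56 in the activated control and 5.20 in the non-activated control. It was detected on 10 arrays, all but E29 and the non-activated control. All detected values were above the level without activation, and the E33 value was the lowest of them. Among the 10 arrays that detected Fst, the widest gap in the order of levels, 0.92, lay between E19 and E33.

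Relative to the non-activated control, Fst was higher with activation by at least 4.56-fold. The activated control stood 0.82 above the median of the other 10 activated arrays, and with the median of all 11 the activation change was 1.43, against 2.19. Without background correction the bound fell to 1.05, and over all alternatives it lay between 1.05 and 2.60. With E33, Fst was 3.96-fold below the activated control, the third largest decrease on that array, and ranked between 3 and 21 over the alternatives. Against the other 10 activated arrays the E33 change was -1.39, and without background correction it was -0.99, just short of 2-fold. With E29 the decrease was at least 2.98-fold. With E19 it was 2.09-fold, and this call was lost against the other 10 activated arrays (-0.46), without background correction (-0.61) and with an offset of 50 (-0.84).

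Tgfb2, a TGF-beta ligand secreted in latent form, was highest with E29. It stood at 8.43 with E4, 7.98 with E5, 8.22 with E14, 8.07 with E18, 8.07 with E19, 7.94 with E20, 8.26 with E21, 8.30 with E23, 9.28 with E29 and 8.42 with E33, against 8.09 in the activated control and 8.28 in the non-activated control. No gap between neighbours passed 0.20 among the other 11 arrays, and E29 stood 0.86 above the next. Set against the activated control, E29 was 2.28-fold higher. That call depends on the scaling: the log2 change of 1.19 was 0.90 with scaling to a common median, 0.96 without background correction and 0.65 with reference gene scaling, all in the same direction. The median change of all measured genes with E29 was 0.25, 0.00, 0.16 and -0.25 in these settings, and relative to it Tgfb2 stood at 0.93, 0.90, 0.80 and 0.90.

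Tgfb1 and Inhba, which encode TGF-beta 1 and the subunit of activin A, were detected on no array. Their probes stayed between 4.45 and 4.58 and between 4.45 and 5.22 log2 units, below every array's floor, so no level or change could be read. The same holds for Fgf2, the basic fibroblast growth factor, at 4.42 to 5.09.

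Vegfa, the vascular endothelial growth factor, was measured best by 1 of its 3 probes, detected on all 12 arrays. It stood at 7.74 with E4, 8.03 with E5, 8.06 with E14, 7.56 with E18, 7.70 with E19, 8.05 with E20, 7.68 with E21, 8.00 with E23, 7.24 with E29 and 8.00 with E33, against 8.06 in the activated control and 8.56 in the non-activated control. On this probe the non-activated array was the highest and all 11 activated arrays lay below it, the nearest by 0.50. The activation change was -0.50, and none of the changes against the activated control reached 2-fold in the processing used, with E29 at -0.82. Scaling to a common median or to reference genes took the E29 change past 2-fold. Against the non-activated control Vegfa was 2.51-fold lower with E29. A second probe was detected on 11 arrays, at 6.33 with E14 and 6.18 with E18, against 6.12 in the activated control and 6.31 in the non-activated control, and was not detected with E29. On that probe E14 was the highest array, and E18 changed by 0.05, against -0.50 on the brighter probe, so the order of the arrays depended on the probe. The third probe was detected on none.

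**Figure D2:**
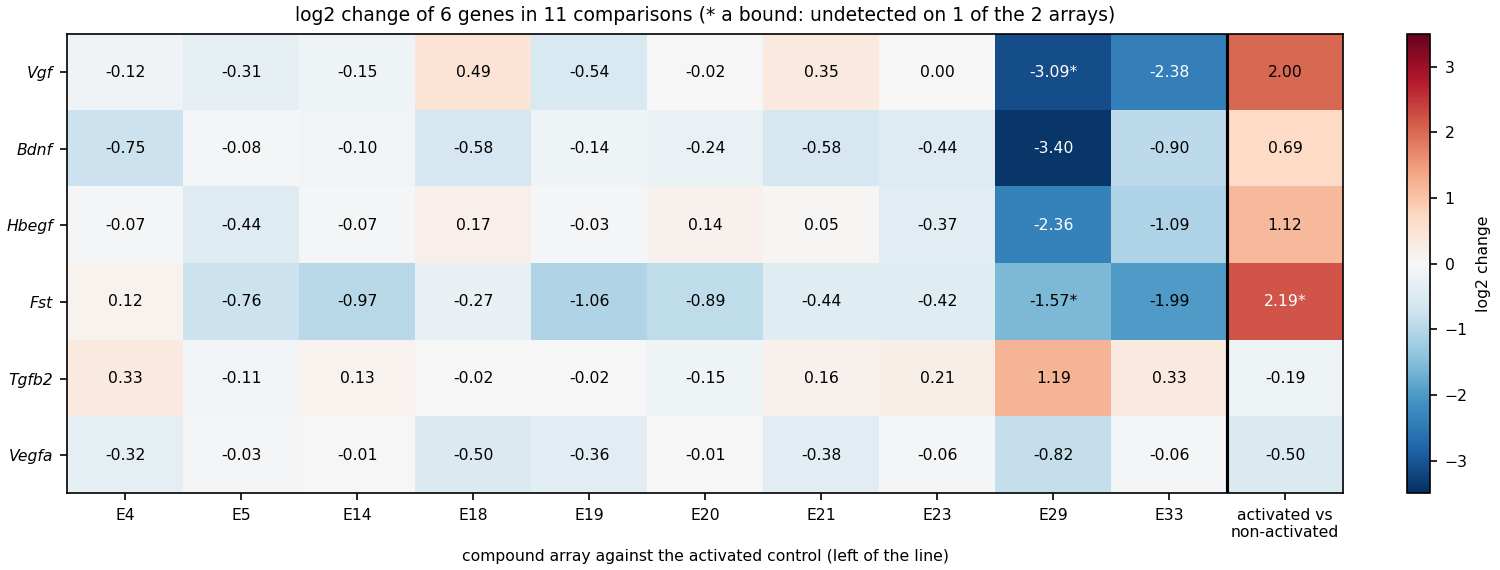
log2 change of 6 genes (rows) in 11 comparisons (columns), the 10 compounds against the activated control left of the line and the activated control against the non-activated control right of it; red is higher and blue lower, and a star marks a bound. The E29 column is blue for all but Tgfb2 (1.19), and the E33 column is bluest for Vgf (-2.38) and Fst (-1.99).

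Read by comparison, the 6 detected genes were measured each time, and these counts describe a list chosen with results of these arrays known. In the activated control against the non-activated control 3 of 6 were higher (Vgf, Hbegf and Fst), where 3.17% of all 7659 measured genes were, and none was lower, against 2.12% of all genes. With E29, 4 of 6 were lower (Bdnf, Vgf, Hbegf and Fst) and 1 higher (Tgfb2), against 14.5% lower and 10.2% higher of all 7472 measured genes. The split of the E29 calls moves with the scaling: 41.3% of all calls were higher, against 27.8% with an offset of 50, 13.1% without background correction, 2.19% after reference gene scaling and 9.18% after median scaling. The reference gene value rests on a set that left out genes undetected on any array, among them Tbp, undetected with E29. In activation the share of higher calls was 60.0%, against 41.0% with reference gene scaling, 51.1% with median scaling and 72.5% without background correction. With E33, 3 of 6 were lower (Vgf, Hbegf and Fst), against 0.773% of all 7502. With E19, 1 of 6 was lower (Fst), against 0.354%. All compound comparisons share the activated control array with each other and with the activation comparison.

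None of the 6 genes was 2-fold changed in either direction with the other 7 compounds. The background there was 3.38% for E4, 0.0947% for E5, 0.281% for E14, 0.299% for E18, 0.0406% for E20, 0.107% for E21 and 0.041% for E23. The absence of calls with E4 is set beside its 253 changed genes: its changes of the 6 genes lay between -0.75 (Bdnf) and 0.33 (Tgfb2). Those with E14 reached -0.97, for Fst.

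The non-activated control gives a reference that does not use the activated control array. Against it, none of the 6 genes was called 2-fold changed with E33, where 4.81% of all measured genes were. The changes ran from -0.56 (Vegfa) to 0.14 (Tgfb2), apart from Fst. The Fst increase was at least 0.20, and this lower bound does not tell if it passed 2-fold. With E29, 4 of 5 measured genes were lower (Bdnf, Vegfa, Hbegf and, by at least 2.14-fold, Vgf), against 13.1% of all genes, and Tgfb2 was higher, just past 2-fold, against 7.38%. Fst was detected on neither of those arrays. With E4, 3 of 6 were higher (Vgf, Hbegf and Fst), against 3.11% of all genes, by 3.68-fold, 2.08-fold and at least 4.94-fold. The same 3 genes were higher with 5 other compounds, where the share of all genes was 2.75% for E14, 3.46% for E18, 2.71% for E19, 2.93% for E20 and 3.61% for E21. With E5 and E23, 2 of 6 were higher (Vgf and Fst), against 2.89% and 2.82% of all genes. All these comparisons share the 1 non-activated array, so calls repeated over compounds are not separate findings. Fst was not detected on that array, so each of its folds here is a lower bound.

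**Figure D3:**
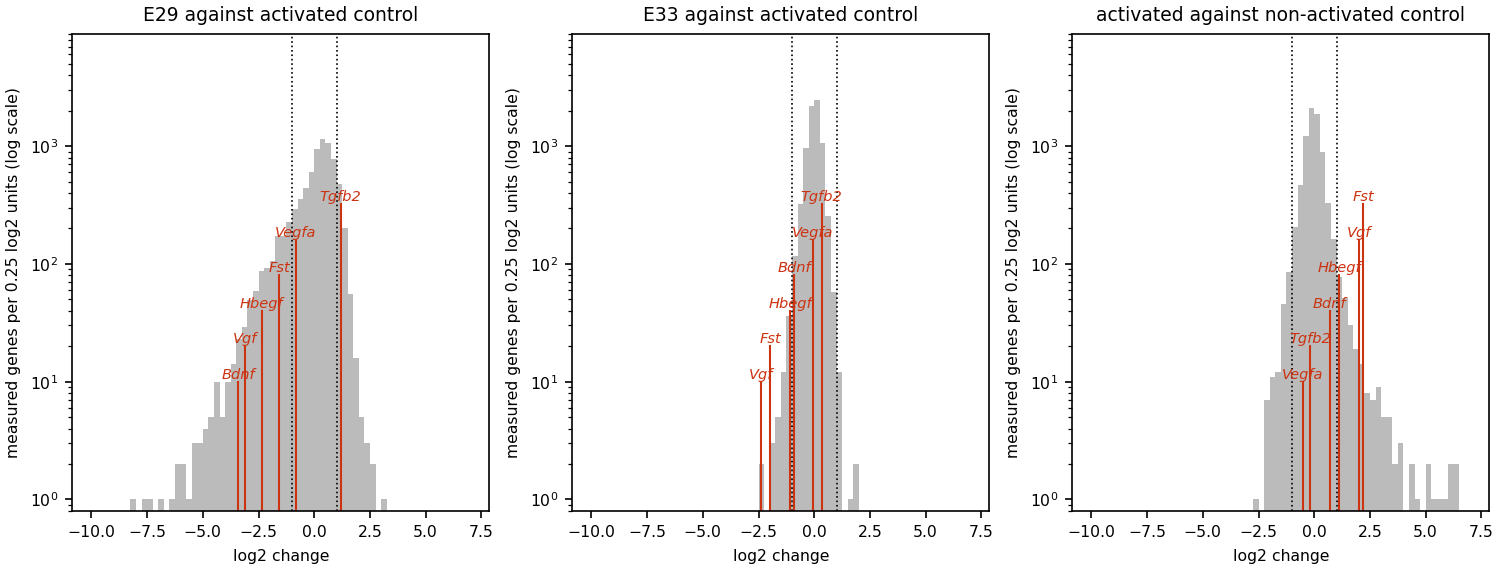
Histograms of the log2 change of all measured genes (grey, counts on a log scale) with E29 and E33 against the activated control and with the activated control against the non-activated control; red lines place 6 growth factor genes, at heights chosen for legibility, and dotted lines mark 2-fold. With E33, Vgf (-2.38) and Fst (-1.99) lie at the lower edge of the distribution, while with E29, whose distribution is wider, Bdnf (-3.40) and Vgf (-3.09) lie inside the lower tail.

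As a measure of likeness, profiles were centred on their medians over the 12 arrays and the root mean square difference was taken. Among the 6 genes Bdnf and Hbegf were closest (0.50 log2 units), followed by Vgf and Hbegf (0.53), and Vgf and Tgfb2 were farthest apart (1.49). For the 4 genes detected on all 12 arrays the same distance was taken to 5848 other named genes detected on all 12.

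The genes nearest to Hbegf were Rrp9, a component of the U3 small nucleolar ribonucleoprotein (0.20), the atypical MAP kinase gene Mapk6 (0.20) and Umps, for pyrimidine synthesis (0.22). Rrp9 stood at 6.43 with E29 and 7.69 with E33, against 9.00 in the activated control and 7.64 in the non-activated control. Nearest to Bdnf were Mphosph6 (0.22), Phactr4 (0.24) and the RNA lariat debranching enzyme gene Dbr1 (0.24). Mphosph6 stood at 6.69 with E29 and 9.13 with E33, against 9.48 in the activated control and 9.02 in the non-activated control. Nearest to Tgfb2 were Ppil2 (0.09), the RNA polymerase III subunit gene Polr3k (0.10) and Rufy3 (0.10), each between 1.12 and 1.16 higher with E29. Nearest to Vegfa were Fchsd2 (0.14), Clba1 (0.16) and Rdh14 (0.17). These distances are descriptions over 12 arrays of 1 cell line. The nearest genes were picked by them, so their alike levels follow from the choice and are not a separate result.

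The other genes of these pathways were followed in 11 lists of 168 genes, of which 147 had a probe. The lists were written with earlier results of these data known, so their counts are descriptions and no test of the pathways. In activation 62 were measured, and 8 were higher (12.9%, where 3.17% of all measured genes were) and 2 lower (3.23%, against 2.12%), with a median log2 change of 0.06, against -0.03 for all measured genes. With E29, 4 of 60 were higher (6.67%, where 10.2% of all measured genes were) and 20 lower (33.3%, against 14.5%), with a median of -0.31, against 0.25 for all genes. With E33, 3 of 58 were lower (5.17%, where 0.773% of all measured genes were), with a median of -0.15, against 0.01. The list counts were taken in the main processing only. The share of all genes lower with E29 was 9.42% without background correction and 25.7% after reference gene scaling.

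**Figure D4:**
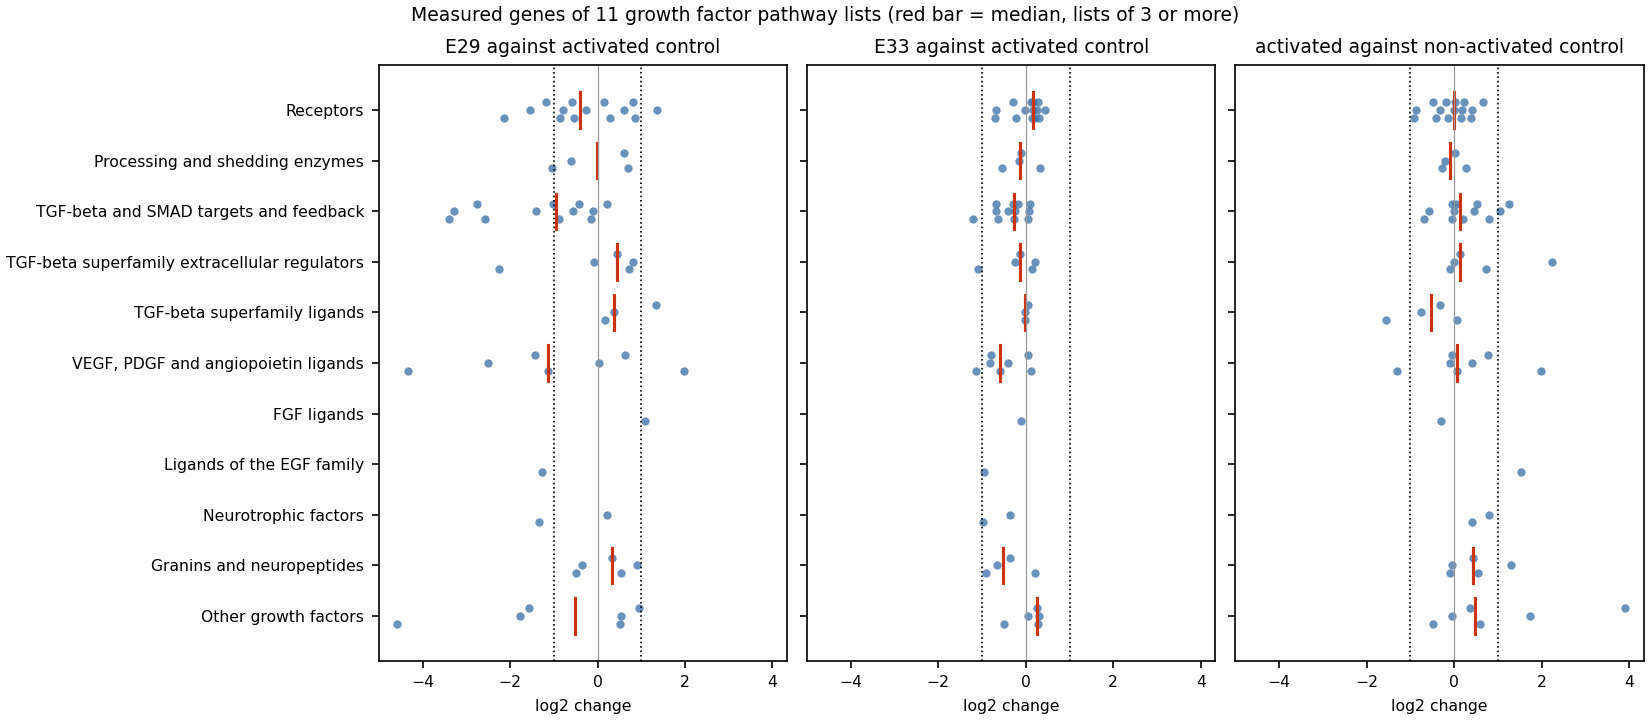
log2 change of each measured gene (blue points) of 11 growth factor pathway lists with E29, with E33 and with activation; red bars are medians of lists with 3 or more measured genes, and dotted lines mark 2-fold. The lists of TGF-beta and SMAD targets and of VEGF, PDGF and angiopoietin ligands have their medians near -1 with E29 (-0.96 and -1.14). The receptor points stay within 2-fold in activation, where that of Flt1 is a bound.

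Among the other ligands, Pdgfb, which encodes the platelet-derived growth factor B chain, was changed in 5 comparisons. It stood at 5.53 with E29, where it was not detected, and 9.18 with E33, against 10.32 in the activated control and 8.35 in the non-activated control. It was 3.93-fold higher with activation, at least 20.2-fold lower with E29 and 2.20-fold lower with E33. It was also 2.07-fold lower with E5 and 2.06-fold lower with E19. The EGF family ligand neuregulin 1 (Nrg1), the only one of its list that was detected, was 2.90-fold higher with activation and at least 2.42-fold lower with E29, and its change with E33 was -0.96.

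Further ligands changed in both directions. Angpt2, the angiopoietin 2 gene, was 2.47-fold lower with activation and 3.92-fold higher with E29, and stood at 8.45 with E29, against 6.48 in the activated control and 7.78 in the non-activated control. Tgfb3 was detected on 5 arrays and was at least 2.51-fold higher with E29. The acidic fibroblast growth factor gene Fgf1 was 2.13-fold higher with E29. The increases of Angpt2, Tgfb3 and Fgf1 with E29 were not recomputed under other scalings. Over all genes, 760 were higher with E29, against 158 after median scaling and 43 after reference gene scaling. Inhbb, for the subunit of activin B, was 2.96-fold lower with activation and changed by 0.17 with E29. The matricellular genes Ccn1 and Ccn2 were 15.1-fold and 3.33-fold higher with activation, and at least 23.9-fold and 3.41-fold lower with E29. Also lower with E29 were Csf1 (2.97-fold), Pdgfa (2.71-fold) and Clcf1 (at least 2.54-fold). Of 7 measured VEGF, PDGF and angiopoietin ligands 4 were lower with E29 and 1 was higher, where 14.5% and 10.2% of all measured genes were. Ccn1 changed by 0.26 with E33, and Ccn1 and Ccn2 were 2.19-fold and 2.11-fold higher with E4. Angptl4, a secreted inhibitor of lipoprotein lipase, changed by 0.06 with activation and was 3.21-fold lower with E4, at least 5.68-fold lower with E29 and 2.07-fold lower with E14.

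Of the granins and neuropeptides other than Vgf, 5 were measured in activation and 1 was higher, the opioid precursor gene Pdyn (at least 2.47-fold), beside 3.17% of all measured genes. None of 5 measured with E29 was 2-fold changed, beside 10.2% higher and 14.5% lower of all measured genes. None of 4 measured with E33 was, beside 0.20% and 0.773%. So few genes give little ground for a comparison with these shares. The granin genes Chgb, Scg2 and Scg3 were detected on all 12 arrays and changed by 0.33, -0.36 and 0.54 with E29, and by -0.37, -0.92 and 0.22 with E33. Vgf in the same comparisons was at -3.09 or lower and at -2.38.

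Of the receptors 28 had a probe, and 14 were detected on all 12 arrays. Ntrk2, which encodes TrkB, the receptor of the Bdnf product, lay at 12.63 with E29 and 12.53 with E33, against 12.35 in the activated control and 12.48 in the non-activated control. Egfr, the receptor of the Hbegf product, lay at 8.69 with E29 and 9.83 with E33, against 9.55 in the activated control and 8.90 in the non-activated control. Of 15 receptors measured in activation none was called 2-fold changed, beside 3.17% higher and 2.12% lower of all measured genes. Among these, Flt1 was detected only in the non-activated control, so its change of -0.41 is a bound and a larger decrease could not be read. Of 14 measured with E33 none was called, beside 0.20% higher and 0.773% lower of all measured genes. With such shares few or no calls would be found in lists of this size. With E29, 3 of 14 were lower and 1 was higher, beside 14.5% lower and 10.2% higher of all measured genes. The TGF-beta receptor genes Tgfbr1 and Tgfbr2 were 4.41-fold and 2.26-fold lower, the type I receptor gene Acvr1 was 2.90-fold lower and the coreceptor gene Tgfbr3 was 2.58-fold higher. These receptor changes were not recomputed under other scalings. With E4, 2 of 14 were lower, beside 2.88% of all measured genes: Tgfbr2 by 2.29-fold and the neuropilin gene Nrp1, a coreceptor for the Vegfa product, by 2.11-fold.

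Of the TGF-beta and SMAD targets and feedback genes 12 were measured, and 6 were lower with E29, where 14.5% of all measured genes were. Tgif1, a repressor of SMAD-driven transcription, was 9.76-fold lower, and the inhibitor of DNA binding genes Id1 and Id3 were at least 10.5-fold and 6.78-fold lower. The SMAD corepressor gene Skil was at least 5.94-fold lower. In activation 2 of 12 were higher, where 3.17% of all measured genes were: the cell cycle inhibitor gene Cdkn2b (2.37-fold) and Tgif1 (2.08-fold). With E33 and with E4 1 of 12 was lower, in both cases Cdkn1a (2.32-fold and 2.41-fold), where 0.773% and 2.88% of all measured genes were lower. Of the extracellular regulators Thbs1, whose product thrombospondin 1 can release TGF-beta from its latent form, was 4.70-fold higher with activation, at least 4.77-fold lower with E29 and 2.13-fold lower with E33. The convertase gene Furin, whose product cuts several growth factor precursors, was 2.05-fold lower with E29, and Adam17, whose product sheds the Hbegf protein, changed by 0.61 with E29 and -0.15 with E33.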

How the data were processed

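Total RNA of 12 samples was read on Illumina bead arrays, 1 each. The deposited table gives, per the file headers, the non-normalized mean bead intensity of each probe and a detection p-value deposited by the authors for each probe and array. The submitters' processing notes list GenomeStudio 2010.3, without saying if it subtracted background. The series' value table, used as an alternative, gives the authors' own normalised intensity per probe, linear and cut off below at 10, with no stated method. All 12 of its columns were nearest to their own sample's deposited column.

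Intensities were processed with neqc (limma 3.58.1, R 4.3.3, offset 16), which corrects background from the detection p-values, applies quantile normalisation and takes log2. The procedure was tested on simulated arrays with the same background and few changed probes, as many raised as lowered. That setting is unlike the E29 array, where many more genes changed, so the simulation does not cover it. Of 25697 probes 23978 had a gene symbol in the platform annotation, and 0 symbols changed through the gene IDs of GRCm38.p6. The brightest probe over all arrays stood for a gene. Genes detected on either array of a comparison count as measured. Pathway genes were named from activation and from each compound against the activated control. They were, per list and comparison, up to 4 with the largest changes among those past 2-fold. Receptors, sheddases and granins of the 10 genes were also named, looked up after their values were seen. The 10 genes and the lists were chosen with earlier results of these data known. Slide and scan date are not in the files used, so batches could not be checked. With 1 array a group, no test was run, and the number of arrays limits the precision. Tables and figures were made with Python 3.11.15, pandas 2.3.3, numpy 2.4.6 and matplotlib 3.10.9.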

Additional observations from a re-analysis of the deposited data

How the results depend on the processing

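The changes of the 6 detected genes, with activation and with each compound against the activated control, were recomputed under 9 alternatives. These were scaling to a common median, no background correction, an offset of 50, reference gene scaling (6 genes) and the authors' processed values. The rest were the mean of detected probes, detection p-values under 0.05, no bound for undetected values, and the median of other activated arrays in place of the activated control. Changes of pathway and marker genes, and all changes of compounds against the non-activated control, were not recomputed. The 6 reference genes were those, of 8 with a probe, that all 12 arrays detected. Tbp fell out by this rule, because its signal on the E29 array did not pass detection. Its decrease there from the activated control is bounded at 3.40-fold or more. The choice of reference genes thus drew on the E29 array itself, and its part in the E29 calls was not tested. Of 108 alternative values of the 12 changes past 2-fold, 99 stayed past it in the same direction and 0 changed sign. Of 486 values of the 54 changes under 2-fold, 5 passed it. The counts that went to or from 0 come first. That of genes lower with E19 was 1, and 0 without background correction, with an offset of 50 and against the other activated arrays. The count higher with E29 was 1, and 0 with median scaling, without background correction and with reference gene scaling. The count lower with E4 was 0, and 1 with reference gene scaling (Bdnf). The count lower with E14 was 0, and 1 with reference gene scaling and with the authors' processed values (Fst). Other counts shifted without reaching 0. With E29, Fst fell short of 2-fold without background correction (-0.84) and against the other activated arrays (-0.98), both bounds. Vegfa passed 2-fold with E29 after median scaling and after reference gene scaling. With E33, Fst fell short without background correction (-0.99). The counts lower with E29 and E33 shift with these genes. Over all genes, the calls with E29 numbered 760 higher and 1082 lower, against 43 and 1920 after reference gene scaling, 158 and 1563 after median scaling, 106 and 704 without background correction and 353 and 918 with an offset of 50. In activation they numbered 243 higher and 162 lower, against 195 and 281 after reference gene scaling, 132 and 50 without background correction and 187 and 88 with an offset of 50. The floors of 5.37 to 5.99 log2 units limit what could be seen for Fst, Vgf and Bdnf. No paired analysis was possible because each group holds 1 array.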
